A study of Mus musculus with 5 samples.

Results

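The genes of the cytosolic ribosomal proteins were examined in RNA-seq of mouse liver. The rule took 83 genes from the 33589 deposited rows of FPKM (fragments per kilobase of transcript, scaled to library size), 49 for the large and 34 for the small subunit. Members were chosen by symbol (Rpl or Rps with a number and at most a short suffix, Rplp0, Rplp1, Rplp2 and Rpsa) and by a mean of at least 1 FPKM over the 5 libraries. Symbols containing -ps and the S6 kinases were left out. A further 6 matching rows lay below the filter. Just inside it were Rpl6l, with a mean of 2.82 FPKM, and Rps3a2, with 2.98 FPKM. Just outside were Rps3a3, with 0.18 FPKM, and Rpl3l, with 0.13 FPKM. Rpl39l, Rpl10l and Rps12l1 were listed at 0 in all libraries, and Rpl32l was above 0 in control 1 alone.

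Livers came from male mice on a high-fat diet, which the labels give as started at 6 weeks of age and kept for 4 weeks. The 2 control libraries carry the label Hegfl/fl, floxed Heg1 with no Cre named, and the 3 knockout libraries the label Lyve1-Cre;Hegfl/fl. All 5 libraries share the floxed gene and the diet, so no chow-fed and no Cre-only group enters the comparison. Lyve1 drives Cre in lymphatic and sinusoidal endothelial cells, the tissue label is liver, and the series title speaks of hepatocytes. In whole liver, fewer cells of a type and less RNA per cell cannot be told apart. Whether each library stands for its own mouse is not stated, and SDs and p-values therefore describe only the spread between libraries, which may be technical.

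The cytosolic ribosome joins a small subunit, which holds the mRNA and decodes it, to a large subunit, which forms the peptide bond and passes the growing chain through an exit tunnel. Both are assembled in the nucleolus from ribosomal RNA and many proteins, most of them present once per ribosome, whose genes are scattered over the genome. Their mRNAs are short and abundant and begin with a terminal oligopyrimidine (TOP) tract, through which mTORC1 and LARP1 control their translation. In liver the ribosome serves a heavy output of plasma proteins.

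The start sites are shown first because the TOP tract is a sequence feature of these mRNAs. RefSeq promoters (GRCm38.p6, the assembly also called mm10) were matched by symbol for 60 of 83 members. An unbroken sense-strand run of at least 8 C or T bases within 10 bases of the annotated start was present in 18 of these 60, against 640 of 8441 other tested genes (7.58%). A run of at least 5 was present in 33 of 60 (55%), against 34.3% of the others. Such a run anywhere in the window is a looser measure than a TOP tract at the true start. Each line gives 30 bases, 10 before the start and 20 from it on, 5′ to 3′, with the longest C or T run of the window in capitals.
Rpl27a (chr7:109519185-109519214, plus strand): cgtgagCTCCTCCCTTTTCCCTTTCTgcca
Rpl35 (chr2:39005112-39005141, minus strand): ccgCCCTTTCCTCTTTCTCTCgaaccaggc
Rpl7a (chr2:26910797-26910826, plus strand): CTCTTCTTTCTTTCTCCagcagccgagcaa
Rps10 (chr17:27635225-27635254, minus strand): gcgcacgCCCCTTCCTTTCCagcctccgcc
Rps18 (chr17:33955646-33955675, minus strand): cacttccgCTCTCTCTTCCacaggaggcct
Rps6 (chr4:86857348-86857377, minus strand): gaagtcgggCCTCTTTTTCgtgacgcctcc
Rpl41 (chr10:128549149-128549178, minus strand): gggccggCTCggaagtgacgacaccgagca
Rps16 (chr7:28350679-28350708, plus strand): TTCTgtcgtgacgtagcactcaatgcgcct
The first 6 lines show long runs in 3 large and 3 small subunit genes. Rpl41 and Rps16 are shown because their differences between the groups were among the most negative although their windows hold no long run. The absence of a run says only that these letters are not in this window, and the annotated starts were not checked. The motif CCGGAAG, searched on both strands of the 300 bases from 250 before to 50 after the start, was in 24 of 60 members (40%) and in 19.3% of other tested genes. TCTCGCG was in 13 members (21.7%) and 5.60% of others, and TATAAA in 6 members and 7.21% of others. The median log2 difference between the groups was -0.065 for the 18 members with a run of at least 8 bases and -0.096 for the other 42.

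The targeted gene was low in every library, and Heg1 (0.48 and 0.35 FPKM in the control libraries against 0.45, 0.43 and 0.50 FPKM in the knockouts) overlapped between the groups, so whole-liver values check the labels little. Lyve1 also overlapped (7.34 and 8.92 FPKM in the control libraries against 3.90, 7.32 and 10.5 FPKM in the knockouts). The 5 hepatocyte markers were all present, and their sum was 73737 to 78224 FPKM in controls against 62147 to 78025 in knockouts. Erythroid markers set knockout 1 apart: their 5 genes summed to 136 and 146 FPKM in the control libraries against 1329, 244 and 141 in the knockouts. The 6 macrophage markers ranged from 145 to 253 FPKM in controls and from 193 to 257 in knockouts, and the 6 sinusoidal endothelial markers from 124 to 146 and from 115.6 to 159. None of these markers was at 0 throughout. Libraries summed to between 797692 and 820498 FPKM, a unit that leaves their depth unknown.

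Ribosomal protein mRNAs were among the most abundant of these livers. Of 83 members, 78 lay in the top 10% of the 10820 tested genes (mean of at least 1 FPKM), and the median member had 286 FPKM against 8.36 FPKM over all tested genes. Together the members made up 3.45% and 3.14% of summed FPKM in the control libraries against 3.31%, 2.95% and 3.09% in the knockouts. These shares overlapped (3.29% ± 0.22, SD, n = 2, and 3.12% ± 0.18, SD, n = 3). FPKM are scaled by transcript length, and levels are set side by side between genes on that basis. Such comparisons depend on the transcript lengths used and on the division of reads between copies, which are not given in the sources used here. The highest member was Rpl13a, a large subunit protein that also takes part in interferon-linked control of translation, with 982 and 965 FPKM in the control libraries against 963, 843 and 865 FPKM in the knockouts. All 3 knockouts lay below both controls, knockout 1 by little. Rplp1, an acidic protein of the stalk that recruits elongation factors, had 929.9 and 860.5 FPKM in the control libraries against 957, 844 and 779 FPKM in the knockouts, where knockouts gave both the highest and the lowest value.

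Next in level was Rps2, a protein of the mRNA entry channel, with 828 and 755 FPKM in the control libraries against 824, 712 and 718 FPKM in the knockouts. Rpl10, which joins the large subunit late in its assembly, had 801 and 722 FPKM in the control libraries against 769, 678 and 782 FPKM in the knockouts, and in both genes the groups overlapped. Without 6 paralogs and retrocopies, the 77 other members ranged from 75.4 FPKM for Rps20 to 923 FPKM for Rpl13a, a 12.2-fold range. These 77 are called core members, a split made after the values were seen. The median core level was 283 FPKM in the large and 312 FPKM in the small subunit.

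**Figure D1:**
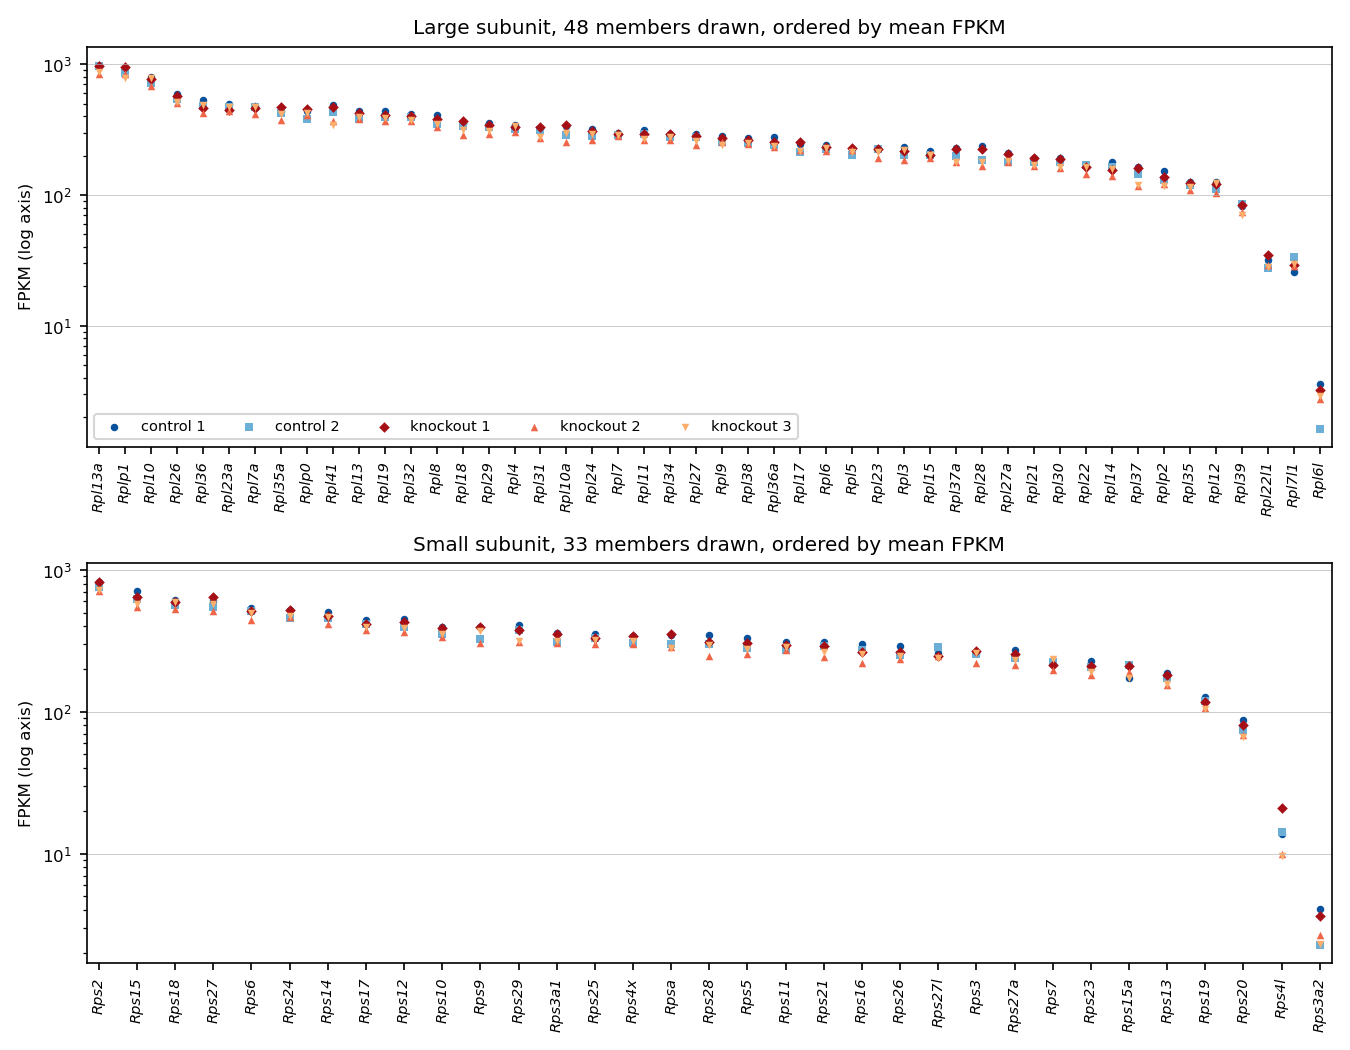
FPKM (log axis) of 81 of the 83 members in each of the 5 libraries (1 symbol a library), large subunit above and small subunit below, ordered by mean. The mean levels of core members lie between 75.4 and 923 FPKM, with the 5 libraries close together for each gene, and Rps4l, Rpl6l and Rps3a2 lie far lower.

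Copies of these genes limit how far a single member can be read. Rows with a ribosomal protein symbol and -ps numbered 238 and summed to 406 to 453 FPKM per library. Members that held exactly the values of another row include Rpl37 (the row Rpl37rt), Rpl23a, Rpl11 and Rpl34. How reads were divided between a gene and its copies was not given in the sources used here. Members with such a copy are uncertain.

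The members moved together from library to library, and the order of the libraries cut across genotype. Taken as the mean over members of log2(FPKM + 1) relative to the 5-library mean, the family stood at 0.12 in control 1, -0.016 in control 2, 0.083 in knockout 1, -0.13 in knockout 2 and -0.056 in knockout 3. Control 1 was the highest library for 62 of 83 members (74.7%), against 11.9% of all tested genes. Knockout 2 was the lowest for 62 members (74.7%), against 20.2% of all tested genes. In 60 members (72.3%) control 1 and knockout 1 both lay above the other 3 libraries, as they did in 10.05% of all tested genes. These shares describe 5 libraries and carry no test.

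Libraries of the same genotype differed as much as the genotypes. Control 2 lay below control 1 in 76 of 83 members, with a median log2 difference of -0.14. Knockout 2 lay below knockout 1 in 83 of 83 members, with a median of -0.20. Across genotypes, knockout 1 lay above control 2 in 65 members (median 0.072), and knockout 2 lay below control 1 in 81 (median -0.25). Over all tested genes these 4 pairs had medians between -0.0089 and 0.066. Knockout 1, with the high erythroid markers, had the second highest level of the family. Control 1, with the highest level, had the lowest erythroid sum (136 FPKM). Macrophage markers were lowest in control 1 and knockout 1 (145 and 193 FPKM), against 253 FPKM in control 2 and 257 and 231 FPKM in knockouts 2 and 3. Sinusoidal endothelial markers were highest in control 1 and knockout 1 (146 and 159 FPKM), against 124, 115.6 and 121 FPKM. The hepatocyte sum was not split in this way. The part of blood and other cells in the level of the family was not tested.

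The 7 members higher in control 2 than in control 1 were Rps15a, Rpl22, Rps27l, Rps7, Rps4l, Rpl7l1 and Rpl39. Rps15a, a small subunit protein, was lowest in control 1, with 173 and 215 FPKM in the control libraries against 211, 192 and 174 FPKM in the knockouts. Rps7, which also binds MDM2, had 218 and 224 FPKM in the control libraries against 212, 197 and 235 FPKM in the knockouts, with its highest value in knockout 3.

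**Figure D2:**
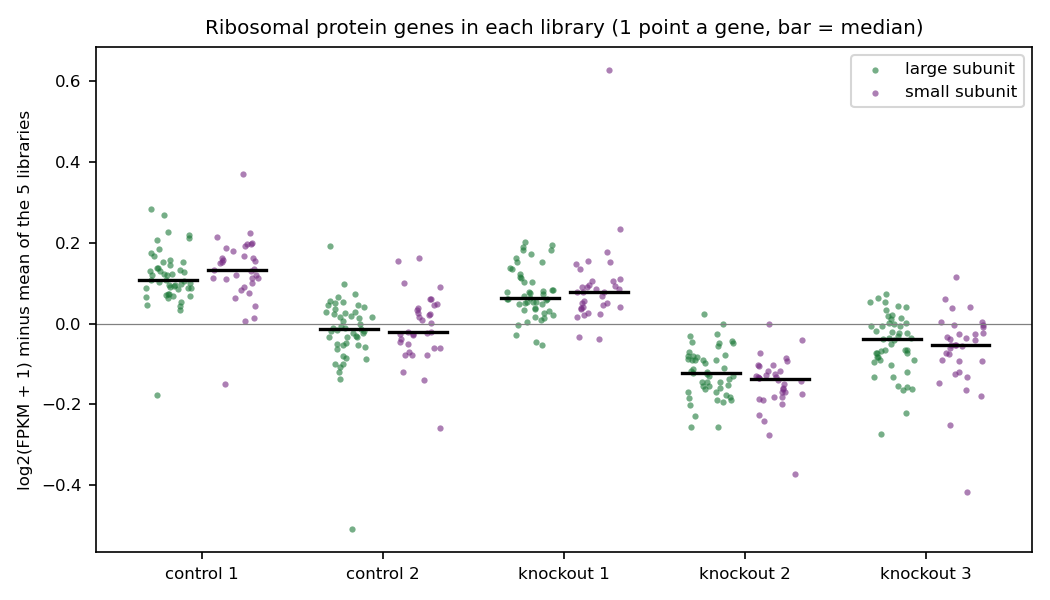
Deviation of log2(FPKM + 1) from the 5-library mean for each member (1 point a gene, bar for the median), by library and subunit. Both subunits are highest in control 1 and knockout 1 and lowest in knockout 2, so libraries of the 2 genotypes interleave.

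No ribosomal protein gene passed the test between knockout and control livers, although 79 of 83 had a log2 difference slightly below 0. With limma on log2(FPKM + 1), adjusted by Benjamini-Hochberg over all tested genes, 0 of 83 members passed at 0.05 in either direction, with a background of 0%, and the smallest adjusted p of a member was 0.718. Without adjustment 0 members reached a p below 0.05 as well, where 1.71% of all tested genes were lower and 5.29% higher. The 79 members below 0 compare with 35.8% of all tested genes, and the 4 above 0 (Rpl6l, Rpl5, Rplp0 and Rpl22l1) with 64.2%. The median log2 difference was -0.091, with an interquartile range of -0.14 to -0.044, beside 0.061 over all tested genes. The groups did not overlap for 12 members, all lower (14.5%), against 6.38% of all tested genes lower and 18.9% higher. The median member had a CV of 6.95% in controls and 8.08% in knockouts.

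Scaling and single libraries moved these counts. Median-of-ratios scaling took the median over all tested genes from 0.061 to 0.0026 and the share of genes below 0 from 35.8% to 49.3%. Unadjusted calls over all genes went from 572 higher and 185 lower to 310 higher and 362 lower with it, to 279 and 321 with quantile normalization, and to 292 and 275 with length correction. Of the members, 82 were lower with median-of-ratios scaling (median -0.16), 66 with quantile normalization (-0.060) and 68 with length correction (-0.057). Lower members without overlap numbered 24 with median-of-ratios scaling, beside 12.1% of all tested genes, 11 with quantile normalization, beside 11.5%, and 13 with length correction, beside 10.7%. Without control 1 the median was -0.026 and 52 members were lower, and without knockout 2 it was -0.039 with 59 lower. Without control 2 the median was -0.15, and without knockout 1 -0.14.

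**Figure D3:**
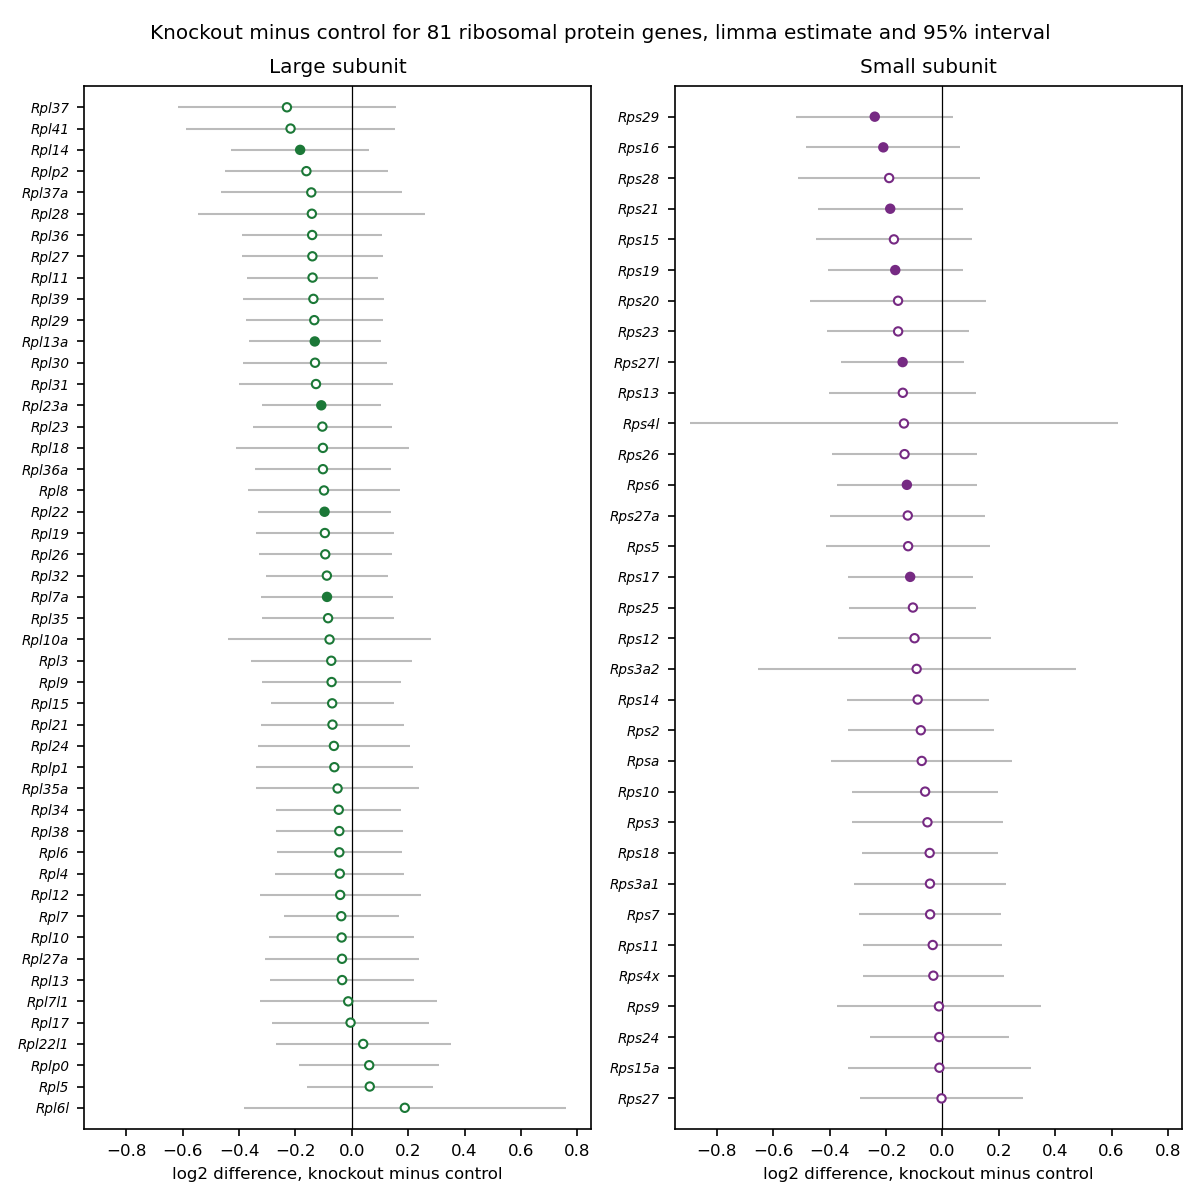
Log2 difference of knockout minus control for 81 of the 83 members (circles) with its 95% interval from limma (grey line), large subunit at left and small subunit at right, filled circles for members whose groups did not overlap. Every interval drawn spans 0, and 77 of 81 circles lie left of it.

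In the small subunit all 34 members had a log2 difference below 0, with a median of -0.10. In 7 the groups were apart without overlap (20.6%), beside 6.38% of all tested genes, both as deposited. Under the other scalings the share over all tested genes was 10.7% to 12.1%. Members of the small subunit without overlap were not counted there. With quantile normalization 26 of the 34 were lower and with length correction 30. Rps29, a zinc-binding protein of the head of the subunit (ENSMUSG00000034892.8, chromosome 12, 69157722 to 69159186, minus strand), had the most negative difference of all members. It had 407 and 378 FPKM in the control libraries against 375, 312 and 313 FPKM in the knockouts. Knockout 1 lay just below control 2, and knockouts 2 and 3 lay well below both controls. The log2 difference was -0.24 (SE 0.12, 95% interval -0.52 to 0.038), and limma gave an adjusted p of 0.718.

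Rps16, another head protein (ENSMUSG00000037563.15, chromosome 7, 28350652 to 28353155, plus strand), had 299 and 273 FPKM in the control libraries against 264, 221 and 257 FPKM in the knockouts. All knockouts were below both controls, and knockout 2 was the lowest. Its log2 difference was -0.21 (SE 0.11, limma adjusted p = 0.731). Rps28, a head protein, had 348 and 298 FPKM in the control libraries against 309.5, 246 and 296 FPKM in the knockouts, so knockout 1 lay between the controls. Rps21, which sits on the body of the subunit, had 312 and 290.5 FPKM in the control libraries against 288, 243 and 265 FPKM in the knockouts. Its groups were separated by less than the gap between the controls. Rps15, a head protein near the decoding centre, had 709 and 622 FPKM in the control libraries against 648, 545 and 579 FPKM in the knockouts, again with knockout 1 between the controls. Their log2 differences were -0.19, -0.19 and -0.17.

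By position, the 14 head proteins had a median of -0.12, with 14 lower and 4 not overlapping. The other 17 core proteins of the small subunit had a median of -0.050, with 17 lower and 2 not overlapping. The counts without overlap stand beside 6.38% of all tested genes, both as deposited. With median-of-ratios scaling that share was 12.1%, and members without overlap were not recounted in these sets. With quantile normalization the medians were -0.088, with 14 of 14 lower, and -0.0060, with 9 of 17 lower, and the difference between the sets was not tested. Rps19, a head protein whose gene is the one most often mutated in Diamond-Blackfan anaemia, had 127 and 118.39 FPKM in the control libraries against 117.66, 105 and 105 FPKM in the knockouts. The highest knockout lay just under the lower control. Rps6, the substrate of the S6 kinases, had 543 and 516 FPKM in the control libraries against 515, 442 and 501 FPKM in the knockouts, with the highest knockout next to control 2. Rps27, a zinc finger protein, was the member nearest to no difference (-0.0030), with 605 and 547 FPKM in the control libraries against 639, 514 and 576 FPKM in the knockouts.

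In the large subunit 45 of 49 members had a log2 difference below 0, with a median of -0.088. For 5 members (10.2%) the groups did not overlap, beside 6.38% of all tested genes, both as deposited. Under the other scalings the share over all tested genes was 10.7% to 12.1%. Members of the large subunit without overlap were not counted there. Rpl37, a zinc finger protein (ENSMUSG00000041841.8, chromosome 15, 5116645 to 5119140, plus strand), had 163 and 144 FPKM in the control libraries against 159.9, 116.06 and 118.98 FPKM in the knockouts. Knockout 1 lay between the controls and knockouts 2 and 3 below them, and the log2 difference was -0.23 (SE 0.16, limma adjusted p = 0.776). Rpl41, the smallest ribosomal protein (ENSMUSG00000093674.7, chromosome 10, 128548114 to 128549305, minus strand), showed the same split, with 485 and 429 FPKM in the control libraries against 473, 371 and 344 FPKM in the knockouts. Its log2 difference was -0.22 (SE 0.15, limma adjusted p = 0.778). Rpl14 (ENSMUSG00000025794.9, chromosome 9, 120571444 to 120574654, plus strand) had 180.0 and 165 FPKM in the control libraries against 156, 140.2 and 159 FPKM in the knockouts, and all 3 knockouts lay below both controls. Its log2 difference was -0.18 (SE 0.10, limma adjusted p = 0.735).

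The other members of the large subunit whose groups did not overlap were Rpl13a, Rpl23a, Rpl22 and Rpl7a. Rpl23a, which forms part of the docking site at the tunnel exit, had 497 and 472 FPKM in the control libraries against 446, 436 and 467 FPKM in the knockouts, a log2 difference of -0.11. Rpl22 had 166 and 169.9 FPKM in the control libraries against 164, 145 and 164 FPKM in the knockouts, with knockout 2 low and the other 4 libraries close together. Rpl7a, with the long run of C and T at its start shown above, had 482 and 471 FPKM in the control libraries against 464, 414 and 469.9 FPKM in the knockouts, and knockout 3 lay just under control 2. The 8 proteins of the exit tunnel or its rim were all lower, with a median of -0.095, and 6 of 8 were lower with quantile normalization.

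Members of the stalk and of the 5S ribonucleoprotein differed in sign. Rplp0 forms the base of the stalk, Rplp1 and Rplp2 bind to it, and Rpl12 sits beside it. Rplp0 had 441 and 383 FPKM in the control libraries against 453, 409.6 and 426 FPKM in the knockouts, with control 1 inside the range of the knockouts and a log2 difference of 0.062 (SE 0.10). Rplp2 had 151 and 129 FPKM in the control libraries against 138, 120.2 and 117.14 FPKM in the knockouts, with knockout 1 between the controls and a log2 difference of -0.16 (SE 0.12). The differences of Rplp1 (-0.062) and Rpl12 (-0.041) lay between these. RPL5 and RPL11 bind the 5S RNA and, outside the ribosome, restrain the p53 ligase MDM2. Rpl5 had 223 and 202 FPKM in the control libraries against 229.7, 222 and 215 FPKM in the knockouts, with control 1 inside the range of the knockouts and a log2 difference of 0.064 (SE 0.093). Rpl11 had 316 and 290.2 FPKM in the control libraries against 292, 263 and 269.9 FPKM in the knockouts, with knockout 1 just above control 2 and a log2 difference of -0.14 (SE 0.097). With median-of-ratios scaling Rplp0 and Rpl5 turned to -0.0061 and -0.0040.

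Large and small subunit genes kept nearly the same proportion in every library. Members of the large subunit summed to 16198 and 14807 FPKM in the control libraries against 15722, 13707 and 14431 in the knockouts. Members of the small subunit summed to 11846 and 10751 FPKM against 11433, 9806 and 10535. The ratio of the sums was 1.367 and 1.377 in the control libraries against 1.375, 1.398 and 1.370 in the knockouts. Knockout 2, with the lowest sums, had the highest ratio, and the other 4 libraries lay between 1.367 and 1.377. The group means were 1.372 ± 0.0070 (SD, n = 2) and 1.381 ± 0.015 (SD, n = 3). Their difference of 0.0086 was smaller than the pooled SD of 0.013, and it was 1.2e-04 without knockout 2. The levels of the large and the small subunit were 0.12 and 0.13 in control 1, and -0.12 and -0.15 in knockout 2.

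Paralogs were lower in level and did not all follow the core genes from library to library. Rps27l, a paralog of Rps27 that p53 activates, was the most abundant, at 44.3% of the level of Rps27. Its coding sequence has 192 of 252 bases identical to that of Rps27 (76.2%). Rps27l had 258 and 284 FPKM in the control libraries against 248, 248 and 239 FPKM in the knockouts. All 3 knockouts lay below both controls, and control 2 was the highest library. Its log2 difference was -0.14 (SE 0.091, limma adjusted p = 0.772).

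Rpl22l1, a paralog of Rpl22 with 67.5% identical coding positions, stood at 18.7% of the level of Rpl22 and had 31.7 and 27.6 FPKM in the control libraries against 34.6, 28.9 and 28.2 FPKM in the knockouts. Knockouts 2 and 3 lay between the controls and knockout 1 above them. Rpl7l1, a paralog of Rpl7 with 54.4% identical positions, stood at 10.2% of the level of Rpl7 and had 25.9 and 33.8 FPKM in the control libraries against 29.4, 28.8 and 29.9 FPKM in the knockouts, with all knockouts between the controls. The log2 differences were 0.041 (SE 0.13) and -0.013 (SE 0.13). The sign for Rpl22l1 turned with median-of-ratios scaling (-0.025) and quantile normalization (-0.011).

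Rps4l, annotated in GENCODE as a transcribed processed pseudogene, had 13.8 and 14.1 FPKM in the control libraries against 20.8, 9.89 and 9.56 FPKM in the knockouts. Knockout 1 was above the controls and the other 2 knockouts below them. Rpl6l and Rps3a2, annotated as processed pseudogenes, stood at 1.24% of the level of Rpl6 and 0.91% of that of Rps3a1. Rpl6l had the most positive difference of all members, with 3.58 and 1.64 FPKM in the control libraries against 3.24, 2.76 and 2.90 FPKM in the knockouts, a log2 difference of 0.19 (SE 0.24) in which all knockouts lay between the controls.

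Among core members, genes with shorter coding sequences had more negative differences. The 9 core members with a coding length of up to 300 nt had a median of -0.19, a group of under 20 genes. Medians were -0.10 for 27 members above 300 and up to 450 nt, -0.072 for 19 members above 450 and up to 600 nt, and -0.061 for 22 members over 600 nt. Rpl41 (75 nt), Rpl39 (153 nt) and Rps29 (168 nt) belong to the shortest group. Rpl39, which lines the exit tunnel, had 82.8 and 84.6 FPKM in the control libraries against 83.3, 74.6 and 70.8 FPKM in the knockouts, with knockout 1 between the controls. Rpl38 (-0.044) and Rps27 (-0.0030) are short as well and lay near 0. Across the 77 core members the difference correlated with coding length, with a Spearman rho of 0.47 and a Pearson r of 0.51 on log2 length. The points are genes of the same 5 libraries and not independent replicates, so no p is given.

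Genes outside the family showed the same direction with length, with a weaker correlation. Their difference correlated with coding length at a Spearman rho of 0.17 and a Pearson r of 0.10 on log2 length. For protein-coding genes that are no members, the median was -0.036 for 216 genes of up to 300 nt, 0.011 for 479 genes above 300 and up to 450 nt, 0.022 for 656 genes above 450 and up to 600 nt, and 0.073 for 8625 genes over 600 nt. From the shortest to the longest range the medians rose from -0.036 to 0.073 in these genes. In core members they rose by a similar amount, from -0.19 to -0.061. A correlation also depends on the scatter of the genes, so the lower value does not show a weaker change with length. The median of the core members lay below that of the other genes in each of the 4 ranges. Among core members the Spearman rho was 0.28 with transcript length and 0.39 with the number of exons. The part of length in the members' values was not tested beyond the correction on transcript length given above. That correction took 1 annotated transcript a gene, for Rps15a 5179 nt with a coding length of 390 nt. Whether these are the main mRNAs in liver was not checked, so the length-corrected counts are uncertain.

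**Figure D4:**
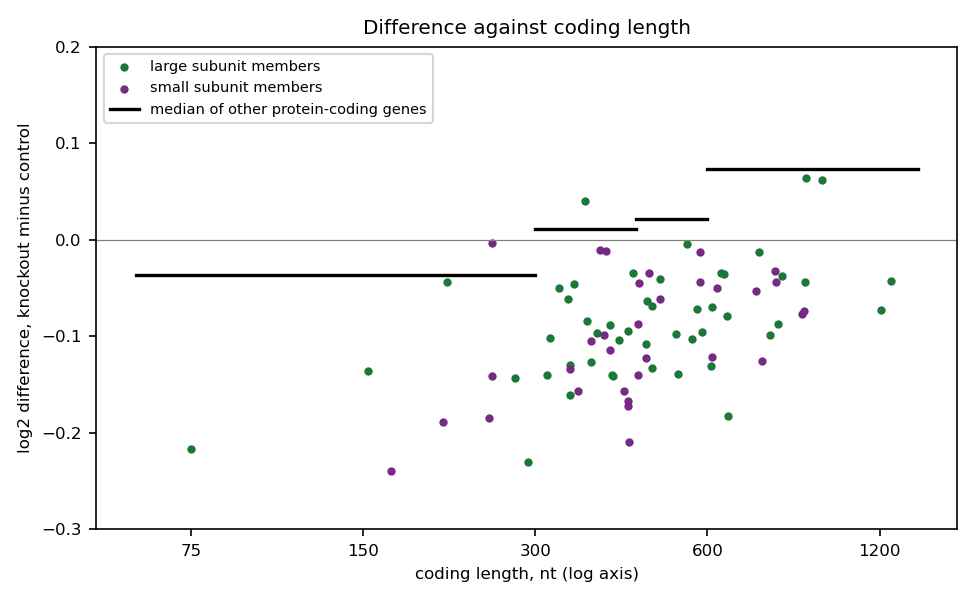
Log2 difference of knockout minus control against coding length (log axis) for members with a coding sequence, coloured by subunit, with black bars for the medians of other protein-coding genes in 4 length ranges. Members lie mostly below the bars, and the bars go from -0.036 for the shortest to 0.073 for the longest range.

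Genes of ribosomal proteins that the symbol rule leaves out also had negative differences. Fau, which encodes a ribosomal protein fused to a ubiquitin-like protein, had 413 and 379 FPKM in the control libraries against 394, 346 and 335 FPKM in the knockouts, with knockout 1 between the controls and a log2 difference of -0.15 (SE 0.11). Rack1, which sits on the head of the small subunit, had 231 and 208 FPKM in the control libraries against 221, 190.2 and 227 FPKM in the knockouts, with knockouts 1 and 3 between the controls (-0.050, SE 0.11). Rpl36al, a paralog of Rpl36a, had 412 and 392 FPKM in the control libraries against 404, 331 and 426 FPKM in the knockouts, with knockout 3 above both controls (-0.063, SE 0.13). None of the 3 passed.

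Of 17 other genes with TOP mRNAs, 8 were lower and 9 higher, with a median of 0.0083, and 0 passed. The sign of this median turned with median-of-ratios scaling (-0.060, 12 lower) and with length correction (-0.011). Pabpc1, the poly(A)-binding protein, had 87.2 and 74.4 FPKM in the control libraries against 96.8, 99.95 and 86.4 FPKM in the knockouts, with knockout 3 between the controls. Vim, an intermediate filament protein, had 27.8 and 19.3 FPKM in the control libraries against 18.4, 19.2 and 22.7 FPKM in the knockouts, with knockout 3 between the controls and the other 2 below them. Eef2, the translocation factor, had 579 and 477 FPKM in the control libraries against 588, 554 and 553 FPKM in the knockouts, with control 1 inside the range of the knockouts. Npm1, a nucleolar chaperone, had 111 and 105 FPKM in the control libraries against 114, 114 and 123 FPKM in the knockouts, all knockouts above both controls. The difference between these genes and the members was not tested.

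Genes that build the ribosome or drive translation passed in 0 cases. Over all tested genes 35.8% were lower and 64.2% higher, with a median of 0.061, so a majority of higher genes is the background of the deposited values. Of 48 ribosome biogenesis genes 18 were lower and 30 higher (median 0.031). Of 15 RNA polymerase I genes 5 were lower and 10 higher (median 0.084), and of 30 initiation factors 13 and 17 (median 0.046). Elongation and release had 1 lower and 11 higher (median 0.11), and mTORC1 and TOP control 5 and 13 (median 0.10). Without adjustment, a p below 0.05 was reached by 1 lower gene of biogenesis, and by higher genes alone in the other sets, 2 of RNA polymerase I and 1 each of initiation, elongation and release, and mTORC1 and TOP control. The shares over all tested genes at this limma p were 1.71% lower and 5.29% higher. With median-of-ratios scaling, the medians of biogenesis (-0.031) and initiation (-0.020) turned negative, and with quantile normalization those of biogenesis (-0.026), initiation (-0.010) and RNA polymerase I (-0.010). With length correction biogenesis (-0.021) and initiation (-0.034) turned negative.

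Wdr43, a factor of small subunit assembly, had 15.9 and 16.7 FPKM in the control libraries against 10.7, 13.5 and 11.5 FPKM in the knockouts, all knockouts below both controls. The log2 difference was -0.43 (SE 0.13, limma adjusted p = 0.700). Ubtf, which opens ribosomal DNA to RNA polymerase I, had 15.8 and 18.1 FPKM in the control libraries against 21.8, 23.1 and 19.5 FPKM in the knockouts, all knockouts above both controls. The log2 difference was 0.33 (SE 0.12, limma adjusted p = 0.700). Larp1, the repressor that binds TOP mRNAs, had 15.03 and 14.04 FPKM in the control libraries against 16.9, 19.2 and 17.5 FPKM in the knockouts, also with all knockouts above both controls. The log2 difference was 0.28 (SE 0.11, limma adjusted p = 0.700).

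Of 14 p53 targets, which free RPL5 and RPL11 can raise through MDM2, 9 were tested, with 2 lower and 7 higher. Their median was 0.20, beside 0.061 over all tested genes. It was 0.14 with median-of-ratios scaling and with quantile normalization, and 0.15 with length correction. Bbc3, a pro-apoptotic BH3 gene, had 2.24 and 2.36 FPKM in the control libraries against 6.07, 5.70 and 3.71 FPKM in the knockouts, and Trp53inp1, a stress-induced cofactor of p53, had 12.5 and 13.8 FPKM in the control libraries against 9.65, 7.08 and 4.86 FPKM in the knockouts. Groups did not overlap in either gene, in opposite directions, and neither passed (limma adjusted p = 0.675 and 0.700). The 2 genes do not stand for the set. Of the 9 tested, 2 lower and 4 higher did not overlap, beside 6.38% of all tested genes lower and 18.9% higher. An unadjusted limma p below 0.05 was reached by 1 lower and 3 higher, beside 1.71% and 5.29% of all tested genes. The 8 snoRNA host genes tested, whose introns carry guide RNAs for the modification of ribosomal RNA, were split, with 3 lower and 5 higher (median 0.027). This median turned with median-of-ratios scaling (-0.036) and quantile normalization (-0.039). Zfas1 had 14.8 and 12.4 FPKM in the control libraries against 21.3, 20.8 and 16.8 FPKM in the knockouts, and Snhg3 had 18.8 and 22.2 FPKM in the control libraries against 12.7, 10.04 and 16.1 FPKM in the knockouts, each without overlap and in opposite directions.

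The 78 mitochondrial ribosomal protein genes are the set nearest in function. Of these, 47 were lower and 31 higher, with a median of -0.037 and an interquartile range of -0.14 to 0.036. With median-of-ratios scaling 67 were lower and 11 higher (median -0.10), with quantile normalization 61 and 17 (median -0.073), and with length correction 51 and 27 (median -0.051). The quantile-normalized median of the cytosolic members was -0.060. None of the 78 passed. An unadjusted limma p below 0.05 was reached by 5 lower and 1 higher, beside 1.71% of all tested genes lower and 5.29% higher. The groups did not overlap for 16 lower (20.5%) and 2 higher, beside 6.38% of all tested genes lower and 18.9% higher. The lower share among the cytosolic members was 14.5%, below that of the mitochondrial set. The mean level of this set was 0.054 and 0.0082 in the control libraries against 0.059, -0.10 and -0.017 in the knockouts, so knockout 2 was again the lowest library. The difference between the cytosolic and the mitochondrial set was not tested.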

How the data were processed

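The authors deposited FPKM per gene symbol for 5 liver libraries, rounded to 2 decimals, in 2 tables with identical values in all 33589 rows. Per the submitters' processing notes, HISAT2, StringTie and DESeq2 were used with mm10, without versions or roles. The annotation and the use of strand are not given in the sources used here. FPKM carry no depth, so no counting interval is given, and a shift in very abundant transcripts moves all other genes.

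From these values, log2(FPKM + 1) of the 10820 rows with a mean of at least 1 FPKM was fitted in limma 3.58.1 (R 4.3.3) with a trended prior variance and genotype as the only term. Tests were two-sided, adjusted by Benjamini-Hochberg over all rows at 0.05, and tried on simulated data. Differences on this scale understate changes of low genes. Positions and lengths came from GENCODE M21 by symbol (83 members found), with 1 transcript a gene. Alternatives changed pseudocount, filter, scaling, library weights, length trend, replicate block and libraries.

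Members, lists and tests were chosen with earlier results of these data known. The rule named the 6 highest and 4 lowest members, the 8 most negative and 4 most positive differences, any member with unadjusted p below 0.05, paralogs, the stalk and 5S lists, and up to 4 genes with the smallest p of each other list. Rps6, Rps7, Rps15a, Rps20, Rps27, Rpl7a, Rpl22 and Rpl38 were chosen after their values were seen. Genes that the rule takes but the text does not name are not reported here, and counts over all 83 members include them.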

Additional observations from a re-analysis of the deposited data

How the results depend on the processing

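The count of members past the adjusted threshold was 0 under each of the 14 alternatives to the limma fit, and the median difference stayed negative for both subunits in all of them. Leaving out 1 library gave medians between -0.15 and -0.026 for all members, -0.14 and -0.014 for the large and -0.16 and -0.034 for the small subunit, with 52 to 81 members lower and 0 to 4 at an unadjusted p below 0.05. The count of 52 came without control 1, and the 4 (Rps29, Rpl37, Rps4l and Rpl41) without knockout 1. These 4 of 83 were all lower, beside 193 lower of 10820 tested genes in that fit. Unadjusted p below 0.05 was also reached by 3 of 83 members with median-of-ratios scaling (Rpl14, Rps29 and Rps16), all lower. In that fit 362 of 10820 tested genes were lower at this p, a similar share. Lower members whose groups did not overlap, recomputed under 3 scalings chosen after seeing the data, numbered 24 with median-of-ratios scaling (12.1% of all tested genes), 11 with quantile normalization (11.5%) and 13 with length correction (10.7%). The difference in the ratio of large to small subunit lay between 1.2e-04 and 0.014 when 1 library was left out. The cause was not tested.

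The labels do not say that equal replicate numbers pair libraries, and only 2 numbers are shared. With the number as a block, knockout 3 is alone in its block and adds nothing to the difference. The median was then -0.086, with 73 members lower, and 5 of all tested genes were past the adjusted threshold. At an unadjusted limma p below 0.05 was 1 of 83 members (Rps16, -0.24), beside 306 lower of 10820 tested genes. Deviations from the group mean of same-numbered libraries correlated at 0.23 and 0.20 across genes. With 2 controls, the deviations of control 1 and control 2 are mirror images. The 2 values are therefore tied to each other and cannot show whether libraries were paired.

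Signs turned for members near 0 or at low level. With length correction Rplp1 was 0.0069 and Rpl10 8.8e-04. With the replicate block Rplp1 was 0.0066, Rps3a2 0.016 and Rps4l 0.045. With median-of-ratios scaling Rpl5 was -0.0040, Rplp0 -0.0061 and Rpl22l1 -0.025, and with quantile normalization Rpl22l1 was -0.011. Leaving out 1 library gave ranges of -0.14 to 0.0066 for Rplp1, -0.11 to 0.039 for Rpl10, -0.21 to 0.59 for Rpl6l, -0.41 to 0.22 for Rps3a2, -0.48 to 0.045 for Rps4l, -0.20 to 0.17 for Rpl7l1, -0.0068 to 0.13 for Rpl5, -0.038 to 0.16 for Rplp0, -0.056 to 0.14 for Rpl22l1 and -0.12 to 0.042 for Rpl12.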
